A study of Homo sapiens with 9 samples.

Results

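The genes described here encode the machinery of glucose breakdown and the response to low oxygen: glucose transporters, the enzymes of glycolysis, the kinases that restrain pyruvate dehydrogenase, the subunits and oxygen sensor of hypoxia-inducible factor (HIF), and target genes of HIF. They were chosen by gene symbol, and every probe set of the array whose annotation gives one of these symbols as its only gene was taken. Of 35 listed genes, 34 had such probe sets, out of 11963 genes with one on the array, and they came to 66 probe sets out of 19065. The array signal of carbonic anhydrase 9 (CA9) was not analysed here.

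Glycolysis splits glucose into pyruvate, and tumour cells often send much of that pyruvate to lactate through lactate dehydrogenase even where oxygen is present. HIF is a dimer of an oxygen-regulated alpha subunit and the constant subunit ARNT. In oxygenated cells prolyl hydroxylases such as EGLN1 mark the alpha subunit for destruction, and in hypoxia it persists and activates genes of glucose uptake, glycolysis, mitophagy, pH control and vessel growth. The alpha subunit is controlled mainly as protein, so its mRNA is not a measure of HIF activity.

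RNA was taken from A673 cells, a Ewing sarcoma line that carries the EWS/FLI fusion, and measured on 9 human Affymetrix arrays. EZH2, the histone methyltransferase of Polycomb repressive complex 2, was targeted with 5 nM siRNA for 48 hours, using EZH2 siRNA no.2 on 2 arrays and an EZH2 siRNA without a number in its title (the unnumbered EZH2 siRNA) on 1 array. The title of the unnumbered siRNA marks it as already tested, without saying how. The labels do not say whether it and EZH2 siRNA no.2 have the same sequence. Histone deacetylases were inhibited with trichostatin A (TSA) at 100 nM for 24 hours (2 arrays), and its solvent DMSO at 0.01% for 24 hours (2 arrays). Cells with a control siRNA, also at 5 nM for 48 hours, filled the last 2 arrays. No group is labelled as held at low oxygen, all groups are 1 cell line, and the siRNA knockdown was transient and partial. The titles call the replicates biological without saying whether they were separate cultures, so p-values measure the spread between these samples only.

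The median signal of an array was 125 to 159, and the trimmed means were level across the 9 (500.1 to 500.2). Spiked hybridisation controls read higher on the replicate 2 arrays (10.43 to 10.53 as a mean log2 signal) than on the replicate 1 arrays and the unnumbered array (9.80 to 10.16). No label names a batch, and this split by hybridisation controls follows the replicate number. The lower side was itself uneven. EZH2 siRNA no.2 replicate 1 and the unnumbered array read 9.81 and 9.80, against 10.06 to 10.16 for TSA, DMSO and control siRNA replicate 1. EZH2 read 572 and 271 with EZH2 siRNA no.2 and 681 with the unnumbered siRNA, against 1130.1 and 1172 with the control siRNA, so its signal was lower on every EZH2 siRNA array. It read 1257 and 1055 with TSA, against 990.1 and 861 with DMSO. The Ewing markers CD99 and STEAP1 had mean signals of 17676 and 6989, and all 5 Ewing markers read passed the filter on low signal. Under it were 2 of 4 blood markers, among them PTPRC (22.5), 3 of 5 epithelial markers, among them EPCAM (21.0), and 3 of 4 endothelial markers, among them CDH5 (12.8). The others passed, with the blood genes CD3E at 99.9 and HBB at 169, the keratins KRT8 at 215 and KRT18 at 6424, and the endothelial PECAM1 at 112.

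Levels below are MAS5 signals, and differences are on the log2(signal + 25.1) scale, which understates the change of dim probe sets. Of the 66 probe sets, 63 from 33 genes passed the filter on mean signal (53.3). The 3 that did not were the only probe set of PDK1 and 1 each of PDK3 and CA12. Among the 63, the array maker's suffix marks 17 (x_at) whose probes can also bind other transcripts and 24 (s_at) shared between transcripts, so genes with close relatives or processed copies, such as GAPDH, are less certain than the others. In bulk RNA, fewer expressing cells and less RNA per cell cannot be told apart.

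RefSeq promoter windows on GRCh38.p14, each of 300 bases with 250 before and 50 after a transcription start, were available for 31 of the 35 listed genes, CA9 among them, in 56 windows, some of them overlapping. None was read for SLC2A3, VEGFA, BNIP3L or NDRG1. The HIF core motif, searched as ACGTG or GCGTG on either strand with overlapping matches joined, stood in 37 of the 56 windows (66.1%), against 17012 of 35116 windows of all genes (48.4%). It was in 24 of 38 windows of glycolytic enzymes (63.2%) and 8 of 10 of HIF targets (80.0%). The member windows were also richer in G and C, with a median of 68.3% against 58.7%, and the motif is itself rich in these bases. A match describes these letters only and is not evidence of binding.

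The promoters of 5 genes were picked for display after the values of their genes had been seen. The motif is in capitals and each strand is read 5′ to 3′ along the gene. Their motif counts do not stand for the members, whose windows had a median of 1. ADM, SLC2A1 and GPI, also described below, had 1 each. FAM162A lies at chr3:122383932-122384231 on the plus strand, with 4 motif runs. BNIP3 lies at chr10:131981874-131982173 on the minus strand, with 5. HK2 lies at chr2:74833877-74834176 on the plus strand, with 3 in this window, the upstream of its pair of windows. ALDOC lies at chr17:28576846-28577145 on the minus strand, with 4, and PFKL at chr21:44299803-44300102 on the plus strand, with 1.
FAM162A: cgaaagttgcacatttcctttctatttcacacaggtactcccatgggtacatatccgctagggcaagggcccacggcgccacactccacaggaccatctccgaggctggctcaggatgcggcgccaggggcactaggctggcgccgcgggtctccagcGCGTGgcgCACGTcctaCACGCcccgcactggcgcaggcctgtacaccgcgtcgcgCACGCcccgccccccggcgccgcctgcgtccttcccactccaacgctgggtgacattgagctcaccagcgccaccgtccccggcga
BNIP3: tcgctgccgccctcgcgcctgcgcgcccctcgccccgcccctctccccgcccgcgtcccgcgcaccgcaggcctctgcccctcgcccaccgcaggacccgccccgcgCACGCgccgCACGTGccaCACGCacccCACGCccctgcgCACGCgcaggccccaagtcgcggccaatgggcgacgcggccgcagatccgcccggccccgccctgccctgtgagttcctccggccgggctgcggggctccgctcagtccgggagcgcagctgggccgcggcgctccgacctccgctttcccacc
HK2: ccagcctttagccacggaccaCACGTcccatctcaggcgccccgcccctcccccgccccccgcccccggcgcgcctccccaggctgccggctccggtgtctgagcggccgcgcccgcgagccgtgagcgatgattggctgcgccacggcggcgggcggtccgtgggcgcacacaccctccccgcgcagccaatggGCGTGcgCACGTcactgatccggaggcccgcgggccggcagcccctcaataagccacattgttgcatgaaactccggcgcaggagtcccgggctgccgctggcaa
ALDOC: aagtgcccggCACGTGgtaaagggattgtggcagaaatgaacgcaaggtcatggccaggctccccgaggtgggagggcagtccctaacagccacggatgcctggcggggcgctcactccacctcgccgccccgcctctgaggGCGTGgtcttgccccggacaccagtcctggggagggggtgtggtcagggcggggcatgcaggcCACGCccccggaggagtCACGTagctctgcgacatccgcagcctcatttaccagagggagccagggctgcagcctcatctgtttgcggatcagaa
PFKL: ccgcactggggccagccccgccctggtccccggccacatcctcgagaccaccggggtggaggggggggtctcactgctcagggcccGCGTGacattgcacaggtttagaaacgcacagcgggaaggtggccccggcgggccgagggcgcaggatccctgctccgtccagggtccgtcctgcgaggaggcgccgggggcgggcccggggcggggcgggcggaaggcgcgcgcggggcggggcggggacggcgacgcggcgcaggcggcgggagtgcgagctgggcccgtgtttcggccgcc

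With EZH2 siRNA no.2 the members did not move as a group. The probe sets with an unadjusted p under 0.05 were 1 of the glucose transporter SLC2A3 and both of PFKL, higher than with the control siRNA, and 1 each of the HIF targets MXI1 and BNIP3L, lower, while most glycolytic enzymes stayed within 0.40 of the control on the log2 scale. The limma test with Benjamini-Hochberg adjustment over 13665 probe sets called 0 members and 0% of all probe sets, with a lowest adjusted p of 0.92. Even EZH2 did not pass (log2 difference −1.48, SE 0.32, unadjusted p = 0.000787, adjusted p = 0.92). At an unadjusted p under 0.05, 3 of 63 member probe sets were higher and 2 lower, where 3.56% and 1.71% of all probe sets were, and each of these 5 missed that threshold without at least 1 of the arrays. The member median was −0.01, and that of all probe sets 0.07, with 31 members above 0 and 32 below. The 2 arrays of each group did not overlap for 20 members that were higher and 15 that were lower, where 22.4% and 12.8% of all probe sets were so. These are 31.7% and 23.8% of the 63 members, above the background in both directions, without a test, since probe sets of 1 gene are not independent. Of the 18 member genes with several tested probe sets, 14 had all of them on the same side of 0.

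**Figure D1:**
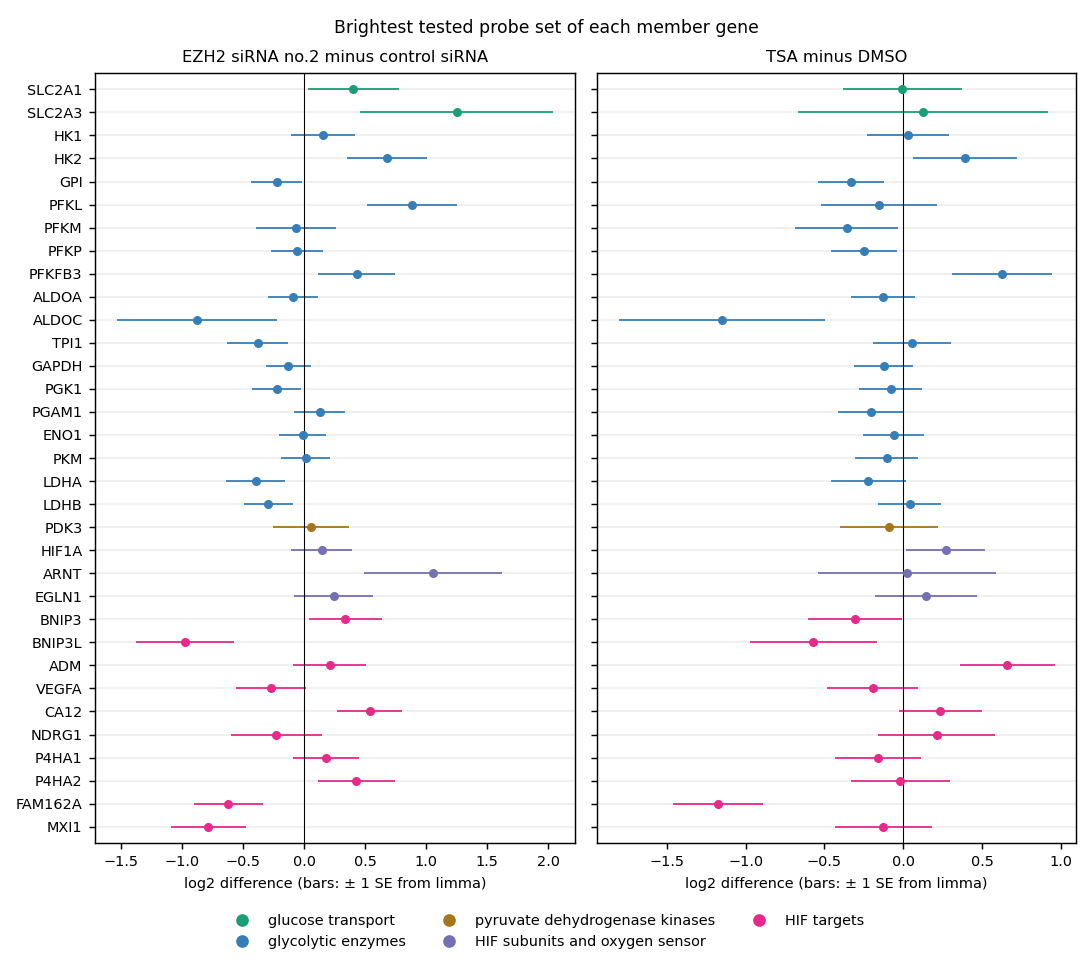
Log2 differences (x axis) of the brightest tested probe set of each of 33 member genes (y axis), EZH2 siRNA no.2 minus control siRNA on the left and TSA minus DMSO on the right, with bars of 1 standard error from limma and colours for the role. SLC2A3, ARNT, PFKL and HK2 lie furthest right on the left panel and BNIP3L, ALDOC, MXI1 and FAM162A furthest left, while FAM162A (−1.17) and ALDOC (−1.15) lie furthest left on the right panel.

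Glucose enters the cell through facilitative transporters. SLC2A3 (GLUT3), the high-affinity transporter, read 97.7 and 224 on probe set 202499_s_at with EZH2 siRNA no.2, against 70.9 and 46.6 with the control siRNA. Both siRNA arrays were above both controls, and the difference was 1.07 (SE 0.41, unadjusted p = 0.0245). It read 84.8 with the unnumbered siRNA, 123 and 95.1 with TSA and 115 and 73.1 with DMSO. The difference was 0.565 without EZH2 siRNA no.2 replicate 2. The second probe set, 202498_s_at, read 74.8 and 95.9 with EZH2 siRNA no.2, against a mean of 39.9 ± 0.105 (SD, n = 2) with the control siRNA. SLC2A1 (GLUT1), the transporter of most proliferating cells, read 313 and 713 on its brighter probe set with EZH2 siRNA no.2, against 307 and 404 with the control siRNA, and the groups overlapped. All 5 transporter probe sets, from 2 genes, lay above 0, where 7948 of all 13665 did, with a median of 0.76. Of these, 4 were higher without overlap, where 22.4% of all probe sets were, and 1 had an unadjusted p under 0.05. With the unnumbered siRNA all 5 were again above 0, where 7694 of 13665 were, with a median of 0.67, against the same 2 control arrays.

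Phosphofructokinase commits sugar to glycolysis, and PFKL is its liver-type subunit. PFKL (201102_s_at) read 1042 and 816 with EZH2 siRNA no.2, 877 with the unnumbered siRNA, 1047 and 639.8 with TSA, 966 and 865 with DMSO, and 719 and 328 with the control siRNA. The second control array stood lowest of the 9. The difference for EZH2 siRNA no.2 was 0.89 (SE 0.37, unadjusted p = 0.0344), and 0.35 without control siRNA replicate 2. A second probe set, 211065_x_at, read 897 and 780.2 with EZH2 siRNA no.2, 894 with the unnumbered siRNA, 935 and 957 with TSA, 952 and 779.6 with DMSO, and 666 and 430.2 with the control siRNA, again lowest on the second control array. It differed by 0.62 (SE 0.28, unadjusted p = 0.0459) for EZH2 siRNA no.2, and 0.32 without that array. DMSO, set against the same controls, differed by 0.87 (SE 0.37, unadjusted p = 0.0366) on 201102_s_at, and 0.335 without that array. The muscle-type and platelet-type subunits, PFKM (−0.07) and PFKP (−0.06), stayed near 0.

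HK2, the inducible hexokinase that traps glucose as glucose 6-phosphate, read 1077 and 600.2 with EZH2 siRNA no.2, 1284 with the unnumbered siRNA, 575 and 718 with TSA, 382 and 611 with DMSO, and 506 and 482 with the control siRNA. All 3 EZH2 siRNA arrays were above both control arrays. The difference was 0.68 (SE 0.33, unadjusted p = 0.0646) for EZH2 siRNA no.2 and 1.33 (SE 0.40, unadjusted p = 0.00706, adjusted p = 0.95) for the unnumbered siRNA. Both share the control arrays, and the unnumbered siRNA, with 1 array, has no spread of its own: its errors and p-values here and below assume that it varies like the groups of 2. The difference for EZH2 siRNA no.2 was 0.27 without its replicate 1 and 1.09 (unadjusted p = 0.014) without its replicate 2. The dimmer HK2 probe set read 205 and 125 with EZH2 siRNA no.2 and 139 with the unnumbered siRNA, against 154 and 89.4 with the control siRNA. HK1, the constitutive hexokinase, differed by 0.15 for EZH2 siRNA no.2. PFKFB3, which makes the allosteric activator of phosphofructokinase, differed by 0.43 without overlap.

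**Figure D2:**
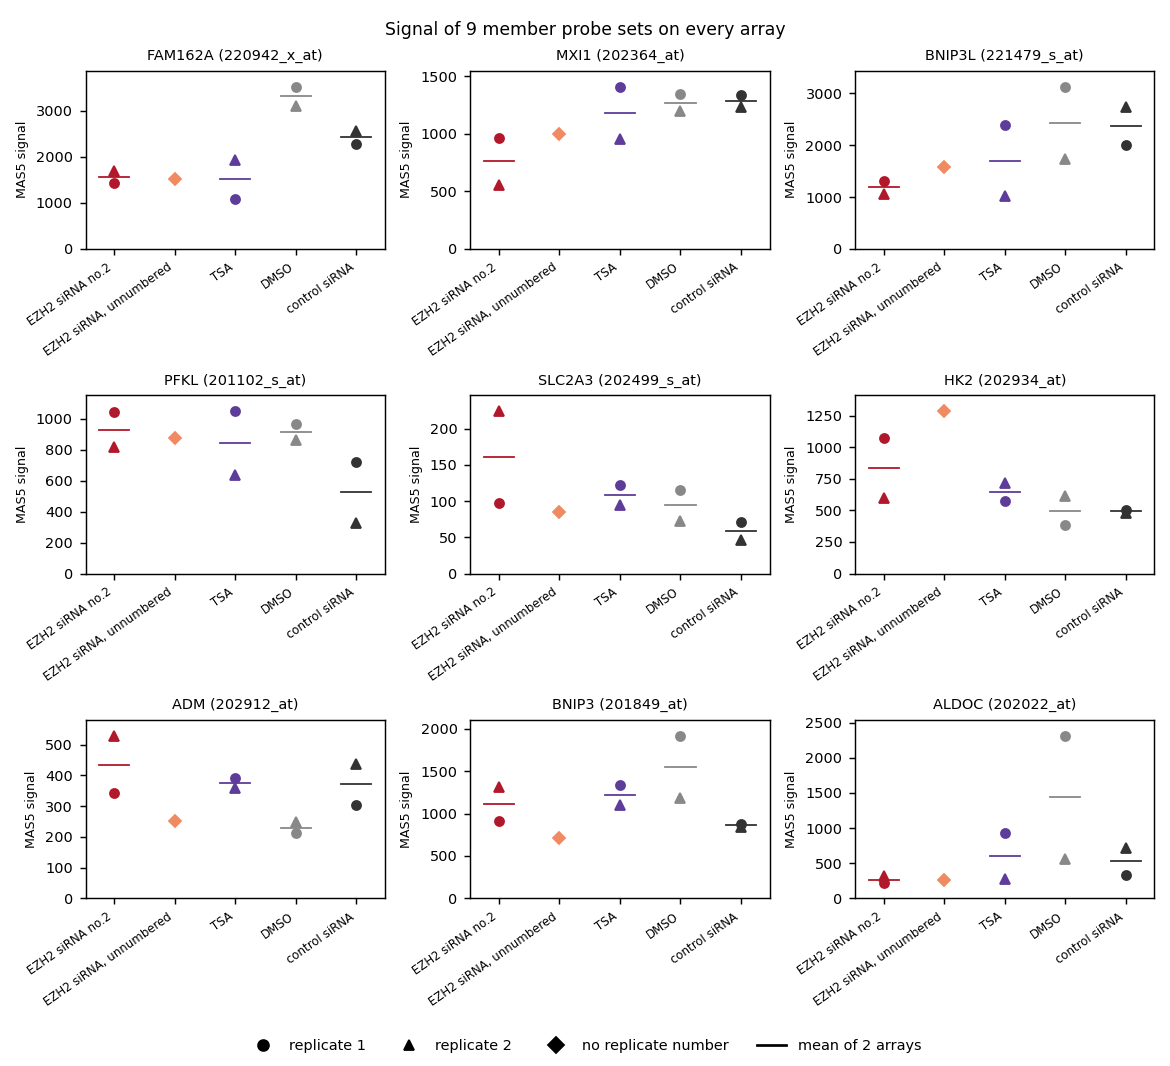
MAS5 signal (y axis, from 0) of 9 member probe sets on every array, by group (x axis), with circles for replicate 1, triangles for replicate 2, a diamond for the array without a number and a line at the mean of 2 arrays. FAM162A lies at 1093 to 1923 on the EZH2 siRNA and TSA arrays and at 2277 to 3517 on the DMSO and control siRNA arrays, and ALDOC reaches 2309 on a single DMSO array.

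Among the 31 probe sets of the 17 glycolytic enzymes, 10 lay above 0 and 21 below, with a median of −0.10. LDHA, which turns pyruvate into lactate, read 15781 and 12599.5 with EZH2 siRNA no.2, 14322 with the unnumbered siRNA, 14877 and 13200.3 with TSA, 20082 and 13291 with DMSO, and 20102 and 17239 with the control siRNA. The EZH2 siRNA arrays were below both controls, with differences of −0.40 (SE 0.24, unadjusted p = 0.123) and −0.38 (SE 0.29, unadjusted p = 0.225). PGK1, the first enzyme of glycolysis to yield ATP, read 5842 and 6003 with EZH2 siRNA no.2, 6055 with the unnumbered siRNA, 6416 and 6942 with TSA, 6961 and 7143 with DMSO, and 7122 and 6748 with the control siRNA. On this probe set, 200738_s_at, its EZH2 siRNA arrays were the lowest of the 9. The difference was −0.23 (SE 0.20, unadjusted p = 0.279) for EZH2 siRNA no.2. PGK1 217356_s_at read 3744 and 2755 with EZH2 siRNA no.2 but 4719 with the unnumbered siRNA, against 4339 and 3745 with the control siRNA. LDHB, the other lactate dehydrogenase subunit (−0.30), TPI1, which interconverts the triose phosphates (−0.38), and GPI, which isomerises glucose 6-phosphate (−0.23), were also lower without overlap. ALDOC, the brain-type aldolase, differed by −0.88 (SE 0.66). ALDOA, the muscle-type aldolase (−0.09), GAPDH, which oxidises glyceraldehyde 3-phosphate (−0.13), the phosphoglycerate mutase PGAM1 (0.13), the enolase ENO1 (−0.01) and the pyruvate kinase PKM (0.01) overlapped between the groups. Of the kinases that restrain pyruvate dehydrogenase, PDK3 differed by 0.05.

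The HIF subunits and sensor lay above 0 in 5 of 5 probe sets, with a median of 0.24, none of them at an unadjusted p under 0.05. The 3 that were higher without overlap were all of ARNT, where 22.4% of all probe sets were. HIF1A read 4297 and 4610.5 with EZH2 siRNA no.2, 4285 with the unnumbered siRNA, 4819.8 and 3380.5 with TSA, 3439 and 3256 with DMSO, and 3487 and 4659 with the control siRNA. The siRNA groups overlapped, with a difference of 0.14 (SE 0.25, unadjusted p = 0.581). ARNT read 179 and 203 on its brightest probe set with EZH2 siRNA no.2, against 178 and 27.9 with the control siRNA, so its difference of 1.06 (SE 0.56) came from 1 control array. EGLN1 differed by 0.24, with overlap.

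The 20 tested probe sets of HIF targets had a median of −0.03, with 9 above 0 and 11 below. MXI1, a transcriptional antagonist of MYC, read 962 and 556 with EZH2 siRNA no.2, 997 with the unnumbered siRNA, 1406 and 954 with TSA, 1344 and 1194 with DMSO, and 1337 and 1227 with the control siRNA. All 3 EZH2 siRNA arrays were below both controls, with differences of −0.79 (SE 0.31, unadjusted p = 0.0262) for EZH2 siRNA no.2 and −0.35 (SE 0.38) for the unnumbered siRNA. The value for EZH2 siRNA no.2 was −0.40 without its replicate 2. BNIP3L (NIX), a mitophagy receptor, read 1315 and 1061 on probe set 221479_s_at with EZH2 siRNA no.2, 1581 with the unnumbered siRNA, 2385 and 1013 with TSA, 3125 and 1726 with DMSO, and 2013 and 2743 with the control siRNA. It was lower with EZH2 siRNA no.2 without overlap (−0.98, SE 0.40, unadjusted p = 0.033), and the limma p was 0.168 without control siRNA replicate 2. Its second probe set, 221478_at, read 1176 and 1013 with EZH2 siRNA no.2, against 1072 and 1452 with the control siRNA, and overlapped.

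FAM162A, a mitochondrial protein induced by hypoxia, read 1434 and 1699 on probe set 220942_x_at with EZH2 siRNA no.2 and 1525 with the unnumbered siRNA, against 2277 and 2566 with the control siRNA. On this probe set each EZH2 siRNA array lay under both controls, with differences of −0.62 (SE 0.29, unadjusted p = 0.052) and −0.66 (SE 0.35, unadjusted p = 0.0877). The dimmer probe set 221533_at read 63.2 and 61.5 with EZH2 siRNA no.2 and 112 with the unnumbered siRNA, against 64.8 and 93.8 with the control siRNA. It was lower with EZH2 siRNA no.2 (−0.24) and higher with the unnumbered siRNA (0.41, SE 0.43). BNIP3, the mitophagy receptor related to BNIP3L, differed by 0.34 on its brightest probe set and by −0.26 on 201848_s_at. VEGFA, the vessel growth factor, read 1432 and 1422 on its brightest probe set with EZH2 siRNA no.2, 1235 with the unnumbered siRNA, 1461 and 1493 with TSA, 1377 and 2082 with DMSO, and 1386 and 2164 with the control siRNA. Each control group held 1 high array, and the difference for EZH2 siRNA no.2 was −0.28 (SE 0.29, unadjusted p = 0.359). The carbonic anhydrase CA12 differed by 0.54 (SE 0.26) on its brightest probe set, the vasodilator peptide ADM by 0.21, the collagen prolyl hydroxylases P4HA1 and P4HA2 by 0.18 and 0.43, and the stress-induced NDRG1 by −0.23.

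Blocking on the split by hybridisation controls left these differences as they were and shrank their errors. At an unadjusted p under 0.05 it then held 8 members, where 8.66% of all probe sets were called, and the lowest of their adjusted p-values was 0.506. The 3 additions were SLC2A3 202497_x_at (1.25, SE 0.35), ARNT 218222_x_at (1.06, SE 0.42) and FAM162A (−0.62, SE 0.26). Single arrays were left out only in the fit without this block.

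The unnumbered siRNA gave 1 member probe set higher (HK2) and 1 lower at an unadjusted p under 0.05, where 2.81% and 2.20% of all probe sets were, and 0 members and 0% of all probe sets by adjusted p. The lower one was the dimmer probe set 213700_s_at of PKM, which read 92.1 with the unnumbered siRNA, against 166 and 317 with the control siRNA (−1.13, SE 0.49, unadjusted p = 0.0437). It was −0.71 without control siRNA replicate 2. Blocking on the split by hybridisation controls, which puts the unnumbered array with the replicate 1 arrays, put it at −0.811. With that block HK2 stayed at 1.34, while SLC2A3 202497_x_at moved from 1.97 to 1.145. The brightest PKM probe set differed by −0.03.

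With TSA the member of smallest p was the HIF target FAM162A. It read 1093 and 1923 with TSA, against 3517 and 3102 with DMSO, so both TSA arrays lay well under both solvent arrays. Its difference was −1.17 (SE 0.29, unadjusted p = 0.00174, adjusted p = 1) and −0.77 without TSA replicate 1. Probe set 221533_at read 101 and 83.7 with TSA, against 80.5 and 119.6 with DMSO, a difference of −0.07 (SE 0.35), so the 2 probe sets disagreed. The x_at suffix of the first marks possible binding of other transcripts, and their part in the result was not tested.

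Across the members, limma called 0 of 63 by adjusted p for TSA minus DMSO, as it did 0% of all probe sets. At an unadjusted p under 0.05, 1 member was higher and 1 lower, where 1.24% and 1.17% of all probe sets were. The member median was −0.08 and that of all probe sets 0.04. Without overlap, 5 members were higher and 12 lower (7.94% and 19.0%), where 16.1% and 12.1% of all probe sets were. In 11 of the 18 genes with several probe sets, all lay on the same side of 0. The glycolytic enzymes had a median of −0.10, with 12 of 31 above 0, and the HIF targets one of −0.18, with 5 of 20 above 0. Of all 13665 probe sets, 7560 lay above 0. The members split into 26 above 0 and 37 below, which scaling moved. The split was 30 and 33 with quantile normalization and 20 and 43 with median scaling.

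ADM was the member that was higher, at 393 and 359.9 with TSA, against 211 and 247 with DMSO. The TSA arrays lay above both DMSO arrays (0.66, SE 0.30, unadjusted p = 0.0498), but within the 305 and 436 read with the control siRNA, and ADM read 342 and 528 with EZH2 siRNA no.2 and 252 with the unnumbered siRNA. The limma test no longer passed the unadjusted threshold without any one of the 4 arrays, with the difference at 0.56 to 0.76. SLC2A1 probe set 201249_at read 72.2 and 79.8 with TSA, against 22.8 and 39.0 with DMSO (0.87, SE 0.41, unadjusted p = 0.0585). It read 79.0 and 68.0 with EZH2 siRNA no.2 and 87.2 with the unnumbered siRNA, against 29.4 and 66.7 with the control siRNA. Its brighter probe set read 253 and 407 with TSA, against 326 and 320.1 with DMSO, and overlapped.

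GPI read 5718 and 5282 with TSA, against 7529 and 6372 with DMSO (−0.33, SE 0.21, unadjusted p = 0.142), without overlap. It read 5857 and 5221 with EZH2 siRNA no.2 and 5615 with the unnumbered siRNA, against 6709 and 6241 with the control siRNA. LDHA differed by −0.22 (SE 0.24, unadjusted p = 0.376), PGK1 by −0.08 (SE 0.20, unadjusted p = 0.699), HIF1A by 0.27 (SE 0.25, unadjusted p = 0.305) and VEGFA by −0.19 (SE 0.29, unadjusted p = 0.513), at the signals given above. PFKFB3 read 868 and 505 with TSA, against 529.6 and 333 with DMSO (0.63, SE 0.32, unadjusted p = 0.0736), with overlap. With the split by hybridisation controls as a block, 4 members had an unadjusted p under 0.05, where 4.37% of all probe sets did: FAM162A, ADM, SLC2A1 201249_at and PFKFB3.

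EZH2 siRNA no.2 and TSA were each set against controls of their own. Of the members, 5 probe sets were separated from their controls in the same direction in both: SLC2A1 201249_at and CA12 215867_x_at higher, FAM162A 220942_x_at, PGK1 and GPI lower. These are 3.17% and 4.76% of the members, where 5.06% and 3.26% of all probe sets were higher and lower in both. CA12 read 267 and 313 with EZH2 siRNA no.2, against 188 and 195 with the control siRNA, and 256 and 267 with TSA, against 228 and 209 with DMSO. With the unnumbered siRNA this CA12 probe set read 182, below both control siRNA arrays (−0.07). PGK1 showed the smaller sizes, −0.23 and −0.08. The test of the difference between both effects called 0 members at an unadjusted p under 0.05, where 1.11% of all probe sets were higher and 0.600% lower, and 0 members and 0% of all probe sets by adjusted p. PFKL came nearest to that threshold (1.04, SE 0.52, unadjusted p = 0.0706). With 4 residual degrees of freedom, these p-values do not show that the effects were alike. Blocking on the split by hybridisation controls put the limma unadjusted p at 0.0185 for PFKL 201102_s_at (1.04, SE 0.38). It was 0.0443 for SLC2A3 202497_x_at (1.12, SE 0.50), and the adjusted p was 0.999 for both.

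The controls differed between themselves in length of treatment (24 hours for DMSO, 48 hours for the control siRNA) and in transfection. Of the members, 3 were higher in DMSO at an unadjusted p under 0.05 and 0 lower, where 2.93% and 1.33% of all probe sets were, and limma called 0 members and 0% of all probe sets by adjusted p. They were BNIP3 and both PFKL probe sets, of which 201102_s_at was at 0.335 without control siRNA replicate 2. Without overlap, 12 members were higher and 5 lower, where 19.4% and 14.5% of all probe sets were. BNIP3 read 1915 and 1185 with DMSO, against 877 and 842 with the control siRNA (0.79, SE 0.30, unadjusted p = 0.0221). It was 0.45 without DMSO replicate 1. The second BNIP3 probe set, 201848_s_at, read 1473 and 563 with DMSO, against 478 and 850 with the control siRNA, and overlapped (0.50, SE 0.43). With the split by hybridisation controls as a block, 5 members had an unadjusted p under 0.05, where 7.11% of all probe sets did.

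The DMSO replicate 1 array stood apart for several HIF targets and enzymes. ALDOC read 2309 there and 561 on the other DMSO array, 211 and 312 with EZH2 siRNA no.2, 260.2 with the unnumbered siRNA, 924 and 267 with TSA, and 337 and 719 with the control siRNA. Its DMSO difference from the control siRNA was 1.17 (SE 0.66, unadjusted p = 0.102), and 0.175 without that array, against 2.17 without the other DMSO array. BNIP3 (1915 and, on its second probe set, 1473), BNIP3L (3125), FAM162A (3517) and P4HA1 (1942) were also highest there. Of the 63 member probe sets, 13 (20.6%) had their highest signal on that array, where 10.6% of all probe sets did. For TSA minus DMSO, FAM162A was −1.08 without that array, against −1.17 with it. LDHA, which was not highest there, was 0.08 without it, against −0.22 with it.

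**Figure D3:**
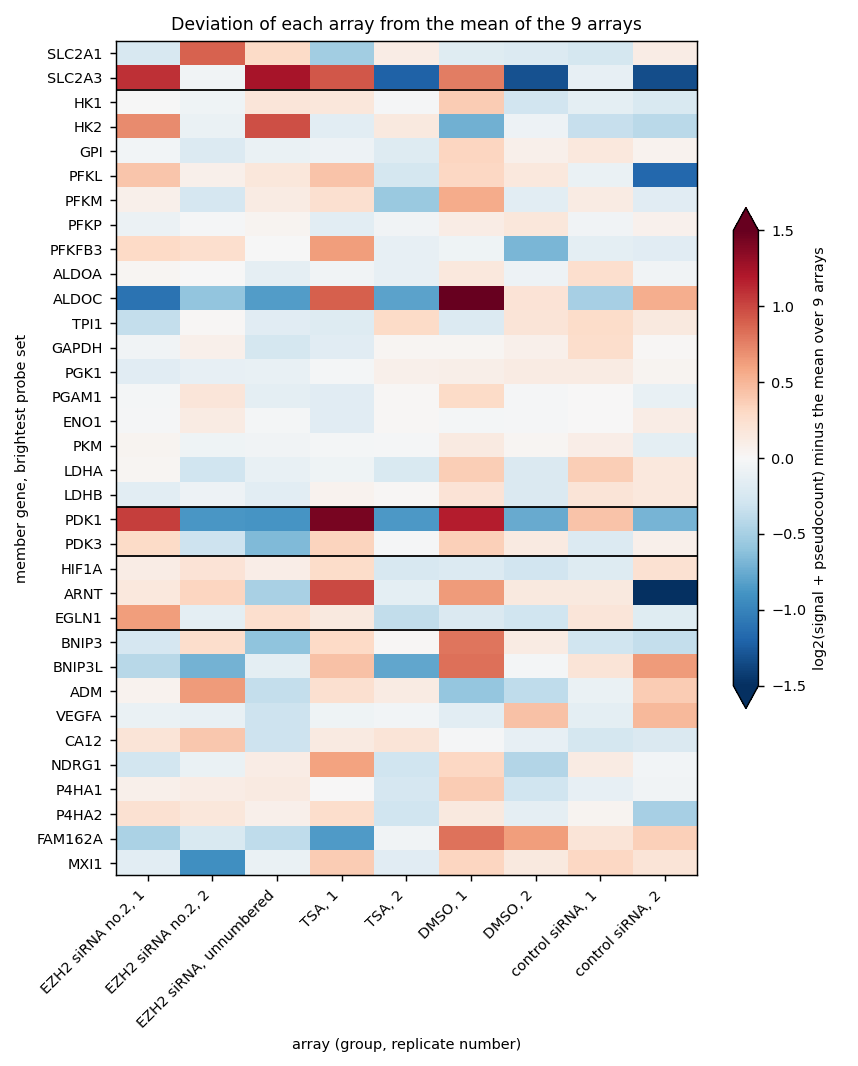
Deviation of log2(signal + pseudocount) from the mean of the 9 arrays (colour, red higher and blue lower, saturated beyond 1.5 either way) for the brightest probe set of each of 34 member genes (rows, grouped by role between black lines) on each array (columns). ALDOC, BNIP3, BNIP3L and FAM162A are red on DMSO replicate 1, and SLC2A3 and PDK1 are lower on the replicate 2 array than on the replicate 1 array of each numbered group.

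Some members differed between arrays by replicate number, though no larger a share than over the whole array. At an unadjusted limma p under 0.05 these were 15.9% of the 63 members, where 18.4% of all probe sets were. Over the 8 numbered arrays, with the group in the fit, SLC2A3 202497_x_at fell in replicate 2 arrays by 1.64 on the log2 scale (SE 0.25, limma adjusted p = 0.0162), lower in 4 of 4 groups. It read 94.2, 28.3, 25.1 and 24.2 on the replicate 2 arrays of EZH2 siRNA no.2, TSA, DMSO and control siRNA, against 241, 211, 186 and 88.7 on their replicate 1 arrays. The unnumbered array read 268. SLC2A3 has a close paralog, SLC2A14, which x_at probes may also bind. The other SLC2A3 probe sets differed less: 202499_s_at was lower on the replicate 2 array in 3 of 4 groups (−0.05, SE 0.28) and 202498_s_at in 2 of 4 (−0.34, SE 0.295). With EZH2 siRNA no.2 both read higher on the replicate 2 array. Leaving out each of the 8 arrays in turn put the adjusted p of 202497_x_at at 0.0246 to 0.0992, and 5 of these 8 fits lost the call.

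**Figure D4:**
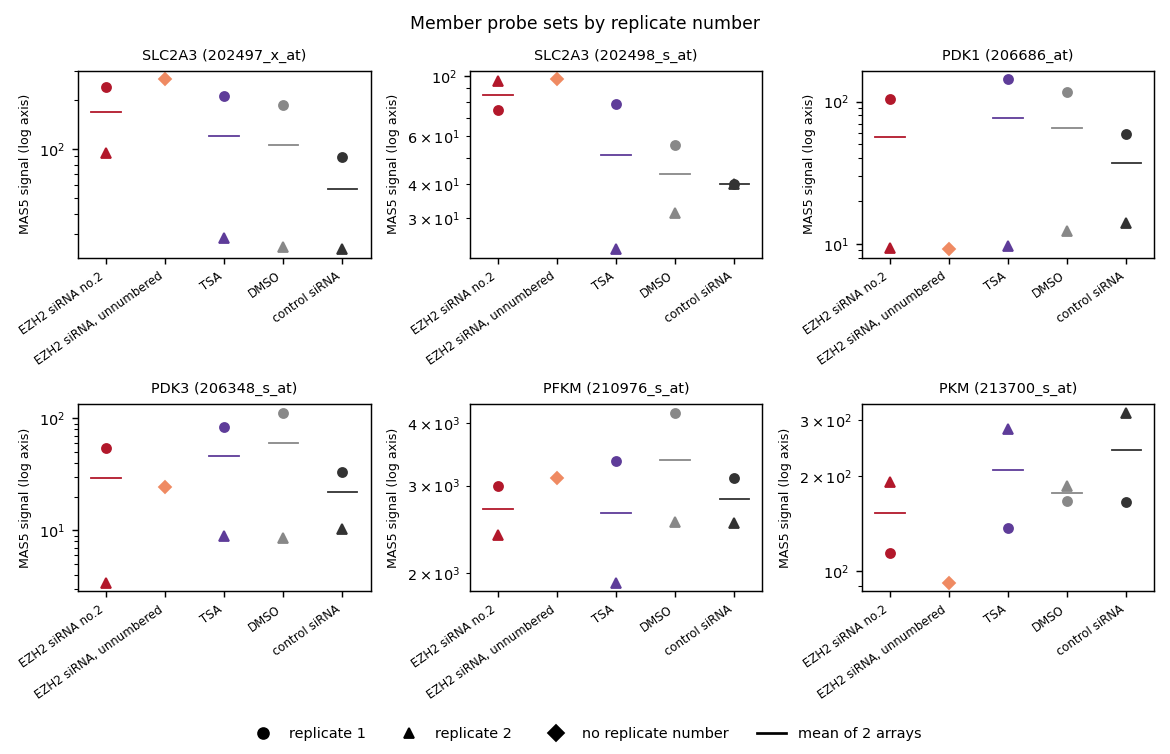
MAS5 signal (y axis, log scale) of 6 member probe sets on every array, by group (x axis), with circles for replicate 1, triangles for replicate 2, a diamond for the array without a number and a line at the mean of 2 arrays. In SLC2A3 202497_x_at, PDK1 and PDK3 206348_s_at every triangle lies below the circle of its group, with PDK1 at 9.33 to 13.9 on replicate 2 arrays and 59.6 to 144 on replicate 1 arrays.

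In all, 10 members had an unadjusted p under 0.05 for the replicate number, 3 higher and 7 lower in replicate 2, where 10.4% and 7.98% of all probe sets were, and 1 passed by adjusted p, where 1.46% did. PFKM read 2389, 1916, 2535 and 2529 on the replicate 2 arrays of EZH2 siRNA no.2, TSA, DMSO and control siRNA, against 2998, 3361, 4202 and 3107 on their replicate 1 arrays (−0.54, SE 0.16, unadjusted p = 0.00662). It was lower in all 4 groups. The dim PKM probe set 213700_s_at read 191, 282, 186 and 317 on the replicate 2 arrays, against 114, 137, 167 and 166 on the replicate 1 arrays (0.63, SE 0.20, unadjusted p = 0.00849). ENO1 216554_s_at, also a dim probe set of its gene, read 507, 708, 619.8 and 534 on the replicate 2 arrays, against 358, 429.8, 426 and 404 on the replicate 1 arrays (0.52, SE 0.16, unadjusted p = 0.00902). Both were higher in all 4 groups, while the brightest probe sets of PKM and ENO1 had no unadjusted p under 0.05.

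PDK1, the HIF-regulated pyruvate dehydrogenase kinase, lay just under the filter and was tested only where no filter was used. It read 9.33, 9.72, 12.3 and 13.9 on the replicate 2 arrays of EZH2 siRNA no.2, TSA, DMSO and control siRNA, against 104, 144, 117 and 59.6 on their replicate 1 arrays. The unnumbered array read 9.16. Without the filter its difference was −1.81 (SE 0.24, limma adjusted p = 0.0756), the lowest adjusted p among the members in that fit. PDK3 206348_s_at, also under the filter, differed by −1.48 (SE 0.24, adjusted p = 0.0989). The replicate 2 signals of PDK1 lie below the pseudocount.

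Other genes of these pathways were read from lists of the same kind. Of 28 tested probe sets of other glycolysis and pyruvate genes, 1 was higher and 2 lower with EZH2 siRNA no.2 at an unadjusted p under 0.05, where 3.56% and 1.71% of all probe sets were. PDK2, a further pyruvate dehydrogenase kinase, read 68.2 and 41.8 on its dimmer probe set 213724_s_at with EZH2 siRNA no.2, against 179 and 409.6 with the control siRNA (−1.92, SE 0.59, unadjusted p = 0.00739). Its brighter probe set read 235 and 151 with EZH2 siRNA no.2, against 170.0 and 314 with the control siRNA, and overlapped. The mitochondrial pyruvate carrier subunit MPC1 differed by −0.80 (SE 0.36), and −0.373 without EZH2 siRNA no.2 replicate 1, and the fructose transporter SLC2A5 by 0.75 (SE 0.29). With TSA, 1 of the 28 was lower, the dimmer probe set of PDHB, a pyruvate dehydrogenase subunit (−0.87, SE 0.34), and 0 were higher, where 1.17% and 1.24% of all probe sets were lower and higher. PDHB was at −0.496 without DMSO replicate 1 and −0.547 without TSA replicate 1.

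Of 49 tested probe sets of other hypoxia genes, 3 were higher and 1 lower with EZH2 siRNA no.2 at an unadjusted p under 0.05, where 3.56% and 1.71% of all probe sets were. GBE1, the glycogen branching enzyme, read 348 and 475 with EZH2 siRNA no.2, 233 with the unnumbered siRNA, and 223 and 183 with the control siRNA (0.93, SE 0.28, unadjusted p = 0.00682). CITED2, a competitor of HIF for its coactivators, read 3371 and 3346 with EZH2 siRNA no.2, against 1836 and 1634 with the control siRNA (0.95, SE 0.34, unadjusted p = 0.0173). The repressor BHLHE40 differed by 1.62 (SE 0.70), with its control arrays at 87.0 and 27.7, and WSB1 213406_at by −1.22 (SE 0.41). BHLHE40 was at 1.08 without control siRNA replicate 2, and WSB1 at −0.81 without EZH2 siRNA no.2 replicate 1. Each of the 7 genes named from both lists for EZH2 siRNA no.2 missed the unadjusted threshold without at least 1 array. With TSA, 1 of the 49 was lower, the stress-induced DDIT4, which read 601 and 298 with TSA, against 1046 and 585 with DMSO, where the groups overlapped. It was −0.84 (SE 0.37, unadjusted p = 0.0417), −0.44 without DMSO replicate 1 and −0.37 without TSA replicate 2. None of these genes passed by adjusted p in either comparison.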

How the data were processed

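The intensity values deposited for each array came from MAS5, per the submitters' processing notes, with no scaling or version stated. They came without detection calls. Of 22283 probe sets, 68 controls, 1043 that name several genes and 2107 that name none were left out, among them 2 shared by SLC2A3 with another gene and 3 control probe sets of GAPDH. Each value was turned into log2(signal + 25.1), the 20th percentile of all values, and probe sets with a mean under the 30th percentile (53.3) were not tested, leaving 13665 from 9100 genes.

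One mean per group was estimated over all 9 arrays in limma 3.58.1 (eBayes with trend, R 4.3.3), with 4 residual and 7.01 prior degrees of freedom, two-sided tests and the Benjamini-Hochberg adjustment over all 13665. The replicate number was tested with the group on the 8 numbered arrays. With 2 arrays a group, the smallest exact permutation p is 0.333, and no such test was run. The fit was tested on simulated data.

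The members and lists were chosen with earlier results of these data known. Every tested member is named. Values on every array are given for members with an unadjusted p under 0.05 and no overlap in the comparisons of EZH2 siRNA no.2 and TSA (filled to 4 by the smallest p), for HIF1A, LDHA, PGK1, VEGFA and EZH2, and, over the 8 numbered arrays, for the 4 members of smallest p by replicate number. Genes of the other lists are named at an unadjusted p under 0.05. BNIP3, ALDOC and other values by array were added after they had been seen. A gene is given by its brightest probe set unless another is named.

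Alternatives were other pseudocounts, filters and scalings, 1 probe set per gene, no trend, only the groups compared, a replicate block, a block on the split by hybridisation controls, and leaving out single arrays. Same-numbered arrays of different groups deviated together at r = 0.098 to 0.409.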

Additional observations from a re-analysis of the deposited data

How the results depend on the processing

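Counts here are member probe sets at an unadjusted p under 0.05. For EZH2 siRNA no.2 (5) the count was 3 without the trend, for TSA (2) it was 1 with a pseudocount at the 40th percentile, a filter at the 50th percentile, quantile normalization or median scaling, for the unnumbered siRNA (2) it was 1 with the larger pseudocount or 1 probe set per gene, and for DMSO minus control siRNA (3) it was 1 with median scaling. For the replicate number it was 16 with median scaling, against 10, and the single adjusted call (SLC2A3) was lost without a filter (lowest adjusted p 0.0756) and with the filter at the 50th percentile (0.121), with 0 calls in each. Leaving out 1 array gave 0 to 5 for EZH2 siRNA no.2, 2 to 5 for TSA, 1 to 6 for the unnumbered siRNA, 0 to 3 for DMSO, 0 to 2 for the difference of effects and 0 to 1 adjusted calls for the replicate number. The 2 replicates per group share numbers, which the labels do not tie to a shared culture or day, so they were not treated as pairs. With the replicate block the counts were 8 for EZH2 siRNA no.2, 4 for TSA, 5 for DMSO minus control siRNA and 2 for the difference of effects. A block on the split by hybridisation controls gave the same 4 counts, but it is no separate check. On the 8 numbered arrays the split is the replicate number, so both blocks give nearly the same fit. Scaling moved the split of calls over all probe sets: 67.5% were higher for EZH2 siRNA no.2, against 53.7% with quantile normalization and 33.5% with median scaling, and the shares were 51.5%, 44.4% and 31.0% for TSA, 56.1%, 47.7% and 34.9% for the unnumbered siRNA, and 68.7%, 60.5% and 45.4% for DMSO. Median scaling moved the median of all probe sets for EZH2 siRNA no.2 by over 0.1, to −0.06, with the member median at −0.16. Signs turned in 6 of 809 settings over 42 single values: HIF1A for EZH2 siRNA no.2 at −0.003 with median scaling and −0.066 to 0.35 without 1 array, VEGFA at −0.592 to 0.041 and, for TSA, −0.488 to 0.099 without 1 array, PGK1 for TSA at 0.003 with quantile normalization, and LDHA for TSA at −0.518 to 0.076 without 1 array. Filters, the trend, fitting only the groups compared and leaving out an array outside the comparison cannot change a difference. Such settings could turn no sign, so 6 of 809 does not measure how firm the signs are. In 704 of the 809 settings a value kept its side of the unadjusted limma threshold. The cause of these shifts was not tested. The number of arrays limits the precision.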

Other observations

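Genes of the hypoxia list that are no members also differed by replicate number and on the DMSO replicate 1 array, and they were picked here after their values had been seen. Of the 49 tested probe sets of that list, 4 passed the limma test for the replicate number by adjusted p, where 1.46% of all probe sets did. PLOD2, a lysyl hydroxylase of collagen, read 343, 733, 833 and 782 on the replicate 2 arrays of EZH2 siRNA no.2, TSA, DMSO and control siRNA, against 1036, 1571, 1438 and 1037 on their replicate 1 arrays. It was lower in all 4 groups, by −0.94 (SE 0.20, limma adjusted p = 0.0445), and its second probe set by −0.86 (SE 0.18, limma adjusted p = 0.0441). The adenylate kinase AK4 differed by −1.68 (SE 0.36, limma adjusted p = 0.0445) on its dimmer probe set, and HMOX1, the inducible heme oxygenase, by 1.19 (SE 0.22, limma adjusted p = 0.0302).

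On the DMSO replicate 1 array TMEM45A read 597, against 137 on the other DMSO array, 83.1 and 153 with EZH2 siRNA no.2, 109.6 with the unnumbered siRNA, 253 and 139 with TSA, and 96.9 and 85.3 with the control siRNA. The neuronal enolase ENO2 read 2887 there, against 2329 on the other DMSO array, 2028 and 1671 with TSA, and 1777 and 1725 with the control siRNA. DMSO minus control siRNA was 1.45 (SE 0.55) for TMEM45A, 0.56 (SE 0.25) for ENO2 and 1.12 (SE 0.37) for DDIT4, and none passed by adjusted p.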
